A study of Mus musculus with 32 samples.

Results

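The genes described here are 5 fatty acid elongases, Elovl1, Elovl2, Elovl3, Elovl5 and Elovl6, taken by symbol from the 55471 genes counted in mouse liver RNA. Polyadenylated RNA was sequenced from livers of 32 male mice of the inbred strain C3H/HeNCrl, all on a high fat diet (HFD), 16 under short light (SL) and 16 under long light (LL). Livers were taken at 4 zeitgeber times (ZT, the time in h set by the lighting), ZT0, ZT6, ZT12 and ZT18, which gave 8 groups of 4 mice. The sources used here name no mutation and no drug for any group, and no animal on another diet was analysed here. Neither the age of the mice, nor the daily hours of light, nor what marks ZT0 is given in the sources used here. By the labels each library is a mouse of its own, and p-values therefore rest on the spread between mice.

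Elongases sit in the endoplasmic reticulum and lengthen fatty acids by condensing an acyl-CoA with malonyl-CoA, the first and slowest step of a cycle that is completed by a ketoacyl reductase, a dehydratase and an enoyl reductase. The family members differ in the chains they take. ELOVL6 turns palmitate into stearate, ELOVL3 and ELOVL1 extend saturated and monounsaturated chains to very long ones, and ELOVL5 and ELOVL2 extend polyunsaturated chains on the route to arachidonic and docosahexaenoic acid. Elovl3 is also known as a transcript of brown fat that responds to cold, and in mouse liver as one with a daily rhythm.

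The genes are spread over 5 chromosomes. On GRCm38 with GENCODE M21 bounds, Elovl1 (ENSMUSG00000006390) lies at chr4:118428093-118432953, Elovl2 (ENSMUSG00000021364) at chr13:41182381-41220405 on the minus strand, and Elovl3 (ENSMUSG00000038754) at chr19:46131897-46135694. Elovl5 (ENSMUSG00000032349) lies at chr9:77917364-77984519 and Elovl6 (ENSMUSG00000041220) at chr3:129532355-129638495. All are protein-coding, and all but Elovl2 are on the plus strand. All 5 share the histidine box of the active site. It is read here in the coding strand of the annotated transcripts as a histidine codon, any 2 codons and 2 further histidine codons, in frame, and each coding sequence held it once. The 15 bases of the box are in capitals, with 24 coding bases on either side, so that the members can be compared before their levels are.
Elovl1: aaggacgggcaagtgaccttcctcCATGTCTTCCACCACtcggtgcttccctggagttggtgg
Elovl3: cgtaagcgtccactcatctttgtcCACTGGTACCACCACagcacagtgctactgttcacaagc
Elovl6: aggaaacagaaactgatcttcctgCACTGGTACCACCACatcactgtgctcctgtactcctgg
Elovl2: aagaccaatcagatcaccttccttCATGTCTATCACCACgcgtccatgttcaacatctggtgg
Elovl5: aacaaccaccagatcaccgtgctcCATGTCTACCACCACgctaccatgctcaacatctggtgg
The stretches are exonic and coding, at chr4:118431430-118431492 (exon 6 of 8), chr19:46134398-46134460 (exon 4 of 4), chr3:129633083-129633145 (exon 5 of 5), chr13:41189977-41190039 (exon 5 of 8) and chr9:77976826-77976888 (exon 5 of 8), in the order printed. Elovl3 and Elovl6 share all 15 bases of the box and 44 of the 63 bases printed (69.8%). Elovl2 and Elovl5, the polyunsaturated elongases, share 52 of 63 (82.5%) and 14 of the 15. The least alike are Elovl1 and Elovl3, with 25 of 63 (39.7%). By this stretch Elovl3 pairs with Elovl6, and Elovl2 with Elovl5.

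Total counts ran from 9095615 to 27462776 reads per library. Of all genes, 14456 were kept after a filter on low counts and tested. The hepatocyte markers fixed for this work (Alb, Apoa1, Ttr, Cyp3a11, Serpina1a and Cps1) summed to between 100393 and 131853 CPM (reads of a gene scaled to the size of its library). Kupffer cell and macrophage markers summed to 176 to 384 CPM, sinusoidal endothelial markers to 148 to 239, stellate cell markers to 143 to 233, and cholangiocyte markers to 30.6 to 61.1. Exocrine pancreas markers summed to 34.6 to 88.8 CPM, of which Cela1 alone gave 34.6 to 78.7, while Prss2, Ctrb1 and Cpa1 each had a median of 0. White adipocyte markers reached at most 1.39 CPM and B and T cell markers 1.54. No marker was at 0 in all libraries, though Retn, Ucp1 and Cidea also had a median of 0. LL ZT12 replicate 3 stood apart, with a mean correlation of 0.969 with its group mates against 0.981 or more in the other libraries. Calls of the elongases and of Pitx3 that changed without it are therefore named.

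All 5 genes were read in all 32 libraries and all 5 passed the filter. Per kilobase of exon, the scale on which genes can be compared, the median level was highest for Elovl5 (347 CPM per kb), followed by Elovl2 (257), Elovl3 (133), Elovl6 (41.1) and Elovl1 (17.01). The polyunsaturated elongases thus made up most of the elongase transcripts in this liver. As a share of the summed level per kb, averaged over the 32 mice, Elovl5 held 42.5%, Elovl2 31.8%, Elovl3 17.8%, Elovl6 5.81% and Elovl1 2.07%. With the length of the longest transcript in place of all exons, the share of Elovl1 was 2.72% and the order did not change. The remaining family genes were near the floor. Elovl4, known from retina, skin and brain, had 4 reads in all and none in 28 of 32 libraries. Elovl7 had 211 reads and a median of 0.404 CPM.

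**Figure D1:**
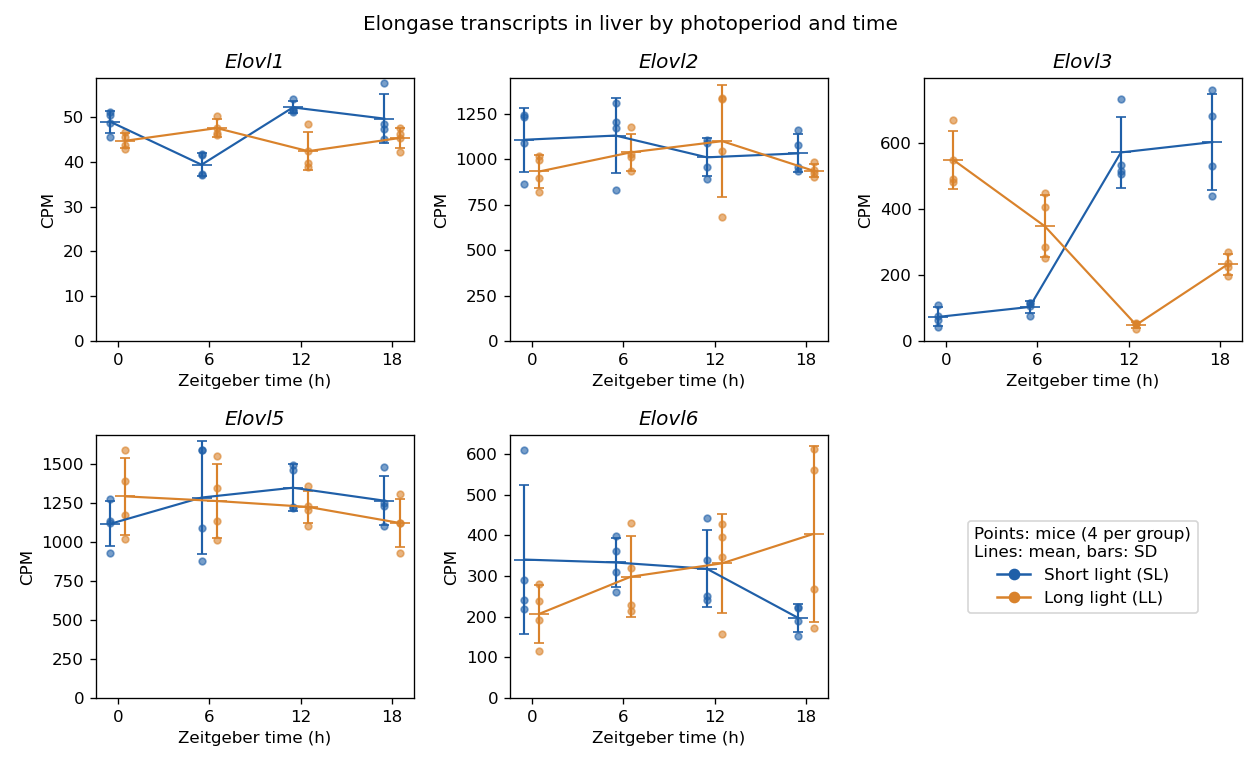
Level of each elongase transcript (CPM, y axis, from 0) against zeitgeber time (h, x axis) in SL (blue) and LL (orange). Points are single mice, lines join the means of 4 mice and bars are SD. Elovl3 swings between 49.1 and 604 CPM with its high times in SL at the low times in LL, while the group means of Elovl2 and Elovl5 lie within 1.21-fold of each other.

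Elovl3, which makes saturated and monounsaturated very long chains, had the widest range of the 5 by far. In SL its level was 110.5, 77.0, 64.3 and 41.5 CPM in the 4 mice at ZT0 and 77.5, 115, 114 and 108 CPM at ZT6. At ZT12 it was 734, 516, 534 and 507 CPM, and at ZT18 532, 761, 439 and 684 CPM. Every SL mouse at ZT12 and ZT18 was thus above every SL mouse at ZT0 and ZT6, with group means of 573 ± 108 and 604 ± 145 CPM (SD, n = 4) against 73.3 ± 28.8 and 104 ± 17.6. In LL the level was 484, 672, 493 and 549.97 CPM at ZT0, and 253, 285, 449.7 and 407 CPM at ZT6. It was 36.3, 52.3, 52.3 and 55.6 CPM at ZT12, and 197, 224, 270.5 and 238 CPM at ZT18. The LL means were 549.8 ± 86.7 CPM at ZT0, 349 ± 94.6 at ZT6, 49.1 ± 8.72 at ZT12 and 233 ± 30.6 at ZT18, so that Elovl3 was at its lowest in LL at the ZT at which it was nearly at its highest in SL.

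Between the photoperiods at the same ZT the direction turned over in the course of the day. Elovl3 was 7.50-fold higher in LL than in SL at ZT0 and 3.37-fold higher in LL at ZT6, and then 11.7-fold higher in SL at ZT12 and 2.60-fold higher in SL at ZT18. The ranges of the 4 mice did not overlap at any of the 4 times. As log2 fold changes, SL minus LL, with the standard error of the fit, these were -2.90 ± 0.23 at ZT0 (edgeR adjusted p = 2.99e-10), -1.75 ± 0.22 at ZT6 (1.40e-06), 3.54 ± 0.24 at ZT12 (9.17e-12) and 1.38 ± 0.22 at ZT18 (7.38e-05), with p-values adjusted by Benjamini-Hochberg over all 14456 tested genes and 0.05 as the threshold. Over the 4 ZTs the changes nearly cancelled, with a mean of 0.07 ± 0.11. In RNA from whole liver, fewer cells that express a transcript and less transcript per cell cannot be told apart.

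Elovl3 was among the most rhythmic transcripts in this liver. Time of day mattered in both photoperiods, with edgeR adjusted p = 4.19e-12 under SL and 8.14e-11 under LL. A 24 h cosine wave through the group means of log2 CPM had an amplitude of 1.97 in SL and 1.77 in LL (SE 0.11). The fitted peak was 15.4-fold over the fitted trough in SL and 11.6-fold in LL. These folds belong to the curve, and the highest measured mean of the 8 groups was 12.3-fold the lowest. Of the tested genes, 13 had a larger amplitude in SL and 27 in LL. The peak fell at 14.7 h under SL (SE 0.21 h) and at 0.60 h under LL (SE 0.24 h), a shift, SL minus LL, of -9.95 h (SE 0.32 h) on a 24 h circle. The amplitudes differed by 0.21 (SE 0.16) between the photoperiods.

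Ordered by its level, Elovl3 stood highest in SL ZT18, then SL ZT12 and LL ZT0, and within these 3 groups each overlapped with the next. A gap without overlap separated LL ZT0 from LL ZT6, and another separated LL ZT18 from SL ZT6. SL ZT6, SL ZT0 and LL ZT12 were lowest, and among them each again overlapped with the next. The highest group mean was 12.3-fold the lowest. Its share of the family's transcripts per kb moved with it, from 3.50% in LL ZT12 and 5.18% in SL ZT0 to 30.2% in LL ZT0 and 31.1% in SL ZT18. The share of Elovl2 was lowest in the groups where that of Elovl3 was highest (25.3% in LL ZT0, 25.6% in SL ZT12 and 26.9% in SL ZT18). Shares sum to a whole, and the group means of Elovl2 itself had a 1.21-fold range with the lowest in LL ZT0. The part of each in its share was not tested.

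**Figure D2:**
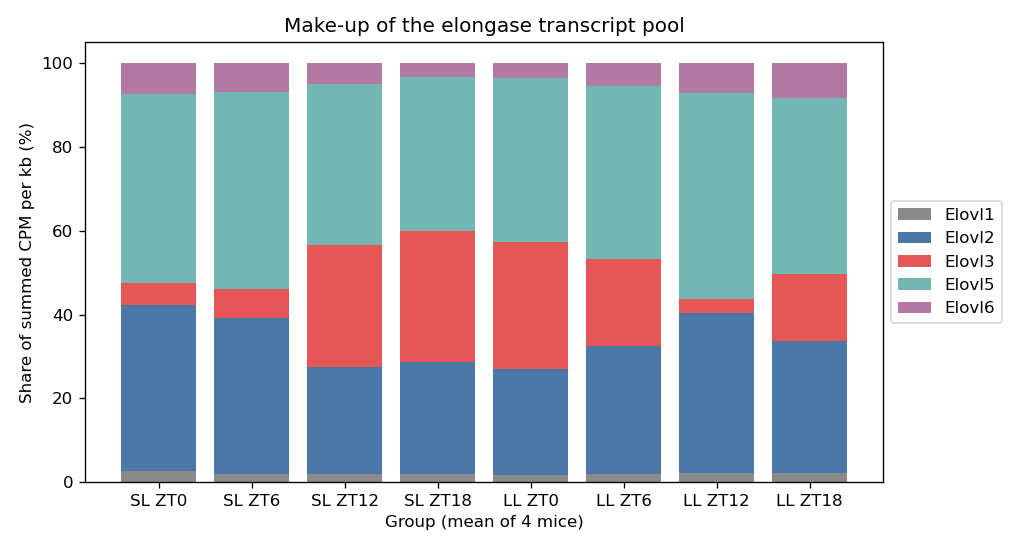
Share of each elongase in the summed CPM per kb of the 5 genes (y axis, percent) in the 8 groups (x axis), as means of 4 mice. The Elovl3 segment widens from 3.50% in LL ZT12 to 31.1% in SL ZT18, and Elovl5 and Elovl2 together remain the larger part of each bar.

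Within groups, mice with more total counts had more Elovl3 CPM: deviations of log2 CPM from the group mean followed deviations of log2 total counts with Pearson's r = 0.60 and Spearman's rho = 0.56 over 32 mice (permutation within groups, p = 0.00449 and 0.00641, for r 0.0225 after Benjamini-Hochberg adjustment over the 5 genes). Without the 2 mice whose deviation of log2 total counts was farthest from the median deviation, r was 0.57. Of the groups with the lowest Elovl3, total counts ran from 15879874 to 26524188 in LL ZT12, from 9781121 to 19060051 in SL ZT0 and from 14524032 to 20782403 in SL ZT6. Of those with the highest, they ran from 13178546 to 19964715 in SL ZT18, from 11903471 to 15530817 in SL ZT12 and from 9095615 to 16652750 in LL ZT0. The part of depth in the level of Elovl3 was not tested. Brown adipocyte markers other than Elovl3 (Ucp1, Cidea and Cox7a1) summed to 0.458 to 4.49 CPM, with the highest sum in LL ZT18 replicate 3, while Elovl3 stood between 36.3 and 761 CPM.

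Pitx3, a homeobox gene of the eye lens and of dopamine neurons (ENSMUSG00000025229, chr19:46135685-46148326, minus strand), ends 10 bases inside the last exon of Elovl3 on the opposite strand. It had 1076 reads over all libraries against 162896 for Elovl3, or 0.661%, and at most 132 reads in a library. Its wave was near that of Elovl3, with amplitudes of 2.31 and 2.25 (SE 0.22) and peaks at 14.1 h under SL and 23.8 h under LL. As a percent of the Elovl3 reads of the same library, Pitx3 had a median of 0.155% in LL ZT12 and 0.325% in SL ZT0, where Elovl3 was low, and 0.70% in SL ZT12, 0.707% in SL ZT18 and 0.84% in LL ZT0, where it was high. The share did not follow Elovl3 throughout, with 0.61% in SL ZT6, another group with low Elovl3, 0.366% in LL ZT6 and 0.704% in LL ZT18. Pitx3 differed at ZT0, ZT12 and ZT18 by the same test, and at ZT6 its adjusted p was 0.0529. At ZT6 it passed with total-count scaling (0.0463), with no filter (0.0239), with DESeq2 (0.039) and without any 1 of SL ZT12 replicate 1, SL ZT18 replicate 2, LL ZT0 replicate 3, LL ZT6 replicates 1 and 2 and LL ZT12 replicate 3 (0.0203 to 0.0489). The ZT18 call ended with the replicate number as a block (adjusted p = 0.053), with limma on the authors' log2 values (0.0641) and without any 1 of SL ZT18 replicates 2 and 4 and LL ZT18 replicates 2 and 4 (0.0726 to 0.169). The strand setting used for counting is not given in the sources used here, so reads of the 2 genes cannot be told apart where they overlap. The Pitx3 reads came to at most 1.19% of the Elovl3 reads in any library, and the level of Pitx3 is uncertain.

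Elovl1, which makes saturated very long chains for sphingolipids, varied far less but with little spread between mice. In SL its level was 51.1, 48.7, 50.5 and 45.6 CPM at ZT0, 41.7, 37.2, 37.2 and 41.4 at ZT6, 51.7, 51.7, 51.2 and 54.2 at ZT12, and 48.4, 45.2, 47.4 and 57.6 at ZT18. The 4 SL mice at ZT6 were below all other SL mice. In LL it was 43.9, 45.5, 43.0 and 46.6 CPM at ZT0, 46.4, 47.6, 50.3 and 45.9 at ZT6, 39.9, 42.4, 48.4 and 38.9 at ZT12, and 42.2, 47.6, 45.3 and 46.3 at ZT18. In LL the ranges of the 4 times overlapped, and the highest of the LL ZT12 mice was replicate 3.

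Between the photoperiods, Elovl1 was lower in SL at ZT6, at 39.4 ± 2.53 against 47.6 ± 1.97 CPM (SD, n = 4), and higher in SL at ZT12, at 52.2 ± 1.34 against 42.4 ± 4.27 CPM, and the mice did not overlap at either time. The log2 changes were -0.27 ± 0.07 (edgeR adjusted p = 0.0102) and 0.30 ± 0.07 (0.00612). At ZT0 and ZT18 the change was 0.13 ± 0.07 each (0.299 and 0.319). The calls at ZT6 and ZT12 ended when no gene was filtered out (adjusted p = 0.109 and 0.0705), and that at ZT12 when the 2 groups compared were fitted on their own (0.128). Elovl1 varied with time of day in SL (adjusted p = 0.000615), with an amplitude of 0.17 and a peak at 16.96 h (SE 0.81 h). In LL it did not pass the threshold (0.357), with an amplitude of 0.05 (SE 0.04). The difference between the 2 waves passed (0.00498), though not with no filter (0.0715). Elovl1 shares 53 exon bases at its end with Cdc20, a cell cycle gene on the opposite strand that had a median of 0.956 CPM.

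Elovl6, the elongase that makes stearate and a known target of SREBP-1c, differed most between mice of the same group. In SL its level was 290.3, 242, 611 and 219 CPM at ZT0, 399, 309.9, 262 and 362 at ZT6, 249.7, 239.9, 443 and 338 at ZT12, and 221, 224, 190.1 and 152 at ZT18. In LL it was 281, 115, 239.5 and 193 CPM at ZT0, 429.6, 319.9, 214 and 229 at ZT6, 427, 346, 157 and 396 at ZT12, and 613, 561, 172 and 267 at ZT18. The SD within groups was 0.56 on the log2 scale, above 99.4% of the 721 tested genes within 1 log2 unit of its level, whose median was 0.143. No neighbouring groups in its order were free of overlap, from LL ZT18 (403 ± 217 CPM) down to SL ZT18 (197 ± 33.7 CPM).

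The largest difference of Elovl6 was at ZT18, where it was lower in SL by 1.04 ± 0.36 on the log2 scale, with overlapping mice. This did not pass the threshold (edgeR unadjusted p = 0.00686, adjusted p = 0.0654). It did pass with no filter (0.00648) and without any 1 of SL ZT0 replicate 3, LL ZT12 replicate 3, LL ZT18 replicate 3 or LL ZT18 replicate 4 (0.0184 to 0.0436). The change in Elovl6 between photoperiods did depend on ZT by the interaction test, at an adjusted p of 0.0423. That call ended without any 1 of 16 of the 32 libraries, at 0.050 to 0.122, and was 0.0598 when libraries were scaled to total counts and 0.0904 with limma on the authors' log2 values. The 16 were SL ZT0 replicate 3, SL ZT6 replicates 1, 2 and 4, SL ZT12 replicate 4, SL ZT18 replicates 1 to 4, LL ZT0 replicates 2 and 4, LL ZT6 replicates 3 and 4, LL ZT12 replicate 2 and LL ZT18 replicates 1 and 2. The difference in 24 h rhythm gave 0.0697, with amplitudes of 0.38 and 0.36 (SE 0.18). It passed with no filter (0.00747) and without any 1 of LL ZT6 replicate 1, LL ZT12 replicate 3, LL ZT18 replicate 3 or LL ZT18 replicate 4 (0.0228 to 0.0461). Skeletal muscle markers (Acta1, Ckm, Myh4 and Mylpf), at 0.997 CPM in the median library, summed to 5.86 to 118 CPM in LL ZT18, with the top in replicate 3, which had the lowest Elovl6 of that group. Their part in the result was not tested. Elovl6 shares 34 exon bases with Gm35986 on the opposite strand and holds Gm43072 within an intron, and reads shared with these are uncertain.

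Elovl5 and Elovl2, the polyunsaturated elongases, were the most abundant and did not pass the threshold in any of the comparisons made. Elovl5, which extends the product of the delta-6 desaturase, had its lowest mouse in SL ZT6 at 878 CPM and its highest in the same group at 1590.2 CPM. Its group means ran from 1118 ± 144 CPM in SL ZT0 to 1349.8 ± 149 CPM in SL ZT12, a 1.21-fold range. The 4 SL minus LL changes lay between -0.21 and 0.17 on the log2 scale, each with an SE of 0.16. Elovl2, which makes the longer precursors of docosahexaenoic acid, had its lowest and its highest mouse in LL ZT12, replicate 3 at 685 CPM and replicate 2 at 1338 CPM. Its group means ran from 934 ± 91.2 CPM in LL ZT0 to 1132 ± 208 CPM in SL ZT6, again a 1.21-fold range, and its SL minus LL changes from -0.12 to 0.25 with an SE of 0.15. For time of day, first under SL and then under LL, edgeR adjusted p-values were 0.818 and 0.506 for Elovl2, and 0.614 and 0.741 for Elovl5. Without LL ZT12 replicate 3, the amplitude of Elovl2 in LL rose from 0.12 to 0.21 and the difference in its rhythm between photoperiods passed the threshold.

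**Figure D3:**
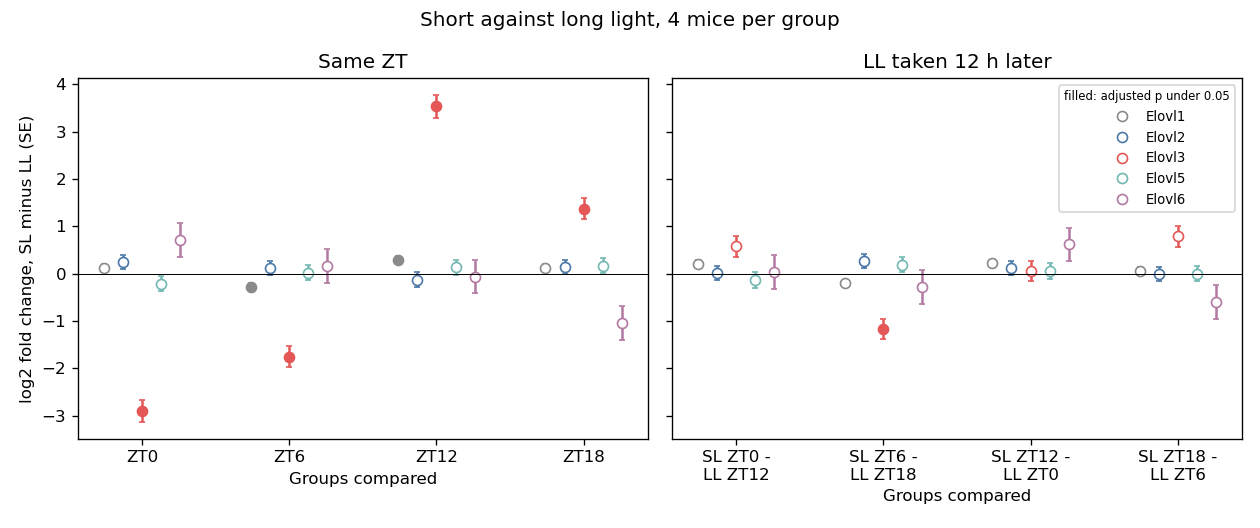
Log2 fold change, SL minus LL, of the 5 elongases (y axis, bars are SE) at the same ZT (left) and with the LL group taken 12 h later (right), filled where the edgeR adjusted p is under 0.05. At the same ZT Elovl3 runs from -2.90 to 3.54 and Elovl1 is filled at ZT6 and ZT12, and on the right Elovl3 in SL ZT6 against LL ZT18 is the only filled point.

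Counted over the family, 1 of 5 genes differed between photoperiods at ZT0 (Elovl3, lower in SL), where 11% of all tested genes did. At ZT6 it was 2 of 5 (Elovl1 and Elovl3, both lower in SL) against 15.3%, and at ZT12 it was 2 of 5 (the same genes, both higher in SL) against 12.4%. At ZT18 it was 1 of 5 (Elovl3, higher in SL) against 9.21%. The median change of the 5 genes was 0.13, 0.03, 0.14 and 0.14 at ZT0, ZT6, ZT12 and ZT18, beside medians of 0.00, -0.01, -0.01 and 0.01 over all tested genes. For the mean of the 4 ZTs, edgeR called 0 of 5, with 0 of 5 also at an unadjusted p under 0.05, where 0% of all genes were called, 730 of them at an unadjusted p under 0.05. DESeq2, run as an alternative, called 6 genes of all for that mean and none of the 5.

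The change between photoperiods depended on ZT in 3 of 5 genes (Elovl1, Elovl3 and Elovl6), with edgeR adjusted p = 0.000512, 4.41e-15 and 0.0423, against 32.7% of all tested genes. Time of day was called in 2 of 5 in SL (Elovl1 and Elovl3), against 19.1%, and in 1 of 5 in LL (Elovl3), against 18.3%. The 24 h rhythm differed in 2 of 5 (Elovl1 and Elovl3), against 36.0%. With 5 genes, counts of 1 to 3 lie near these shares, and nothing particular to the family is read from them.

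Setting each SL group beside the LL group 12 h away on the clock dial uses the same mice again in another pairing. That offset was taken from earlier results of these data. The share of genes called in these pairings is therefore no independent test of it. SL ZT0 against LL ZT12 gave 0 of 5 genes called by edgeR (2 at an unadjusted p under 0.05), where 0.0346% of all genes were called. Elovl3 was 1.49-fold higher there in SL, at a log2 change of 0.58 ± 0.22 (adjusted p = 0.313). SL ZT12 against LL ZT0 also gave 0 of 5 (1 at an unadjusted p under 0.05), against 0.00692%, and Elovl3 differed by 0.06 ± 0.22, with 573 CPM beside 549.8. SL ZT18 against LL ZT6 gave 0 of 5 (1 unadjusted), against 0.0553%, with Elovl3 at 0.79 ± 0.22 (0.309), which passed with no filter (0.0221).

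In the remaining pairing Elovl3 stayed apart. SL ZT6 against LL ZT18 gave 1 of 5 genes, against 0.443% of all. Elovl3 was 2.25-fold lower in SL ZT6, where its highest mouse was at 115 CPM, than in LL ZT18, where its lowest was at 197 CPM, at a log2 change of -1.17 ± 0.22 (edgeR adjusted p = 0.0182). That call ended without SL ZT6 replicate 1, SL ZT6 replicate 2 or LL ZT18 replicate 2 (0.0551 to 0.0924) and when only these 2 groups were fitted (0.0528), while the direction held. Across the 4 offset pairings the SL minus LL change of Elovl3 was not constant (interaction adjusted p = 0.00218), which made it 1 of 5 genes called, against 0.519% of all. Elovl1 reached 0.0996 in that test, 0.0124 without LL ZT12 replicate 3 and 0.0234 with DESeq2.

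Whether mice with more of one elongase had more of another was asked within groups, from deviations of log2 CPM from the group mean over 32 mice, for the 10 pairs of elongases and 5 pairs with Srebf1, which codes for the lipogenic factor SREBP-1. None of the 15 pairs passed after Benjamini-Hochberg adjustment of permutation p-values drawn within groups, and 2 had an unadjusted p under 0.05 for r. Elovl2 and Elovl5 had r = 0.46 and rho = 0.47 (permutation p = 0.00841, adjusted 0.10), and r = 0.45 without the 2 farthest mice. Elovl5 and Elovl6 had r = 0.43 and rho = 0.46 (permutation p = 0.0134, adjusted 0.10), and r = 0.57 without the 2 farthest. Elovl3 and Elovl6 had r = -0.38 and rho = -0.46 (permutation p = 0.0572 and 0.0175, adjusted 0.217 and 0.0875). Elovl6 and Srebf1 had r = 0.43 and rho = 0.37 (permutation p = 0.0722, adjusted 0.217), with r = 0.28 without the 2 farthest. Taken within SL and within LL (16 mice each), r was 0.68 and 0.24 for Elovl2 and Elovl5, 0.22 and 0.61 for Elovl5 and Elovl6, -0.08 and -0.71 for Elovl3 and Elovl6, and -0.05 and 0.63 for Elovl6 and Srebf1. Whether these differ between the photoperiods was not tested. One pair passed without SL ZT0 replicate 4, SL ZT6 replicate 3 or LL ZT12 replicate 3. Without LL ZT12 replicate 3, r over both photoperiods was 0.61 for Elovl2 and Elovl5 and 0.47 for Elovl5 and Elovl6. It was -0.39 for Elovl3 and Elovl6 and 0.40 for Elovl6 and Srebf1. The values within LL were not computed without this mouse.

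Genes whose group means ran most like those of each elongase were taken among tested genes with a mean of at least 1 CPM, by Pearson's r over the 8 group means of log2 CPM, as a description. For Elovl3 they were Tjp3, a tight junction protein gene (r = 0.997), Ppp2r1b, a scaffold subunit gene of protein phosphatase 2A (0.995), and Eml3, a microtubule-associated protein gene (0.995). Tjp3 ran from 16.7 ± 2.80 CPM in LL ZT12 to 51.0 ± 10.1 CPM in SL ZT18, a smaller range than that of Elovl3. For Elovl1 they included Tbccd1 (0.985), which ran from 27.7 ± 1.37 CPM in SL ZT6 to 31.8 ± 2.83 CPM in SL ZT12, and Pld3 (0.981). For Elovl6 they were Cpm, a carboxypeptidase gene (0.984), Tgm1, a transglutaminase gene (0.954), and Kif21b, a kinesin gene (0.951). For Elovl2 and Elovl5, whose group means hardly differ, the closest were Ccdc159 (0.947) and Zfp706 (0.934). Among the elongases themselves the highest r over the 8 group means was 0.56, for Elovl3 and Elovl5, and the lowest -0.64, for Elovl2 and Elovl3.

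Of 7 listed partners in the elongation cycle, 6 were tested and 2 had a photoperiod change that depended on ZT, a share near the 32.7% of all tested genes. Hacd3, a dehydratase gene, was at 211 ± 3.64, 222 ± 9.72, 179 ± 7.86 and 176 ± 6.70 CPM at ZT0, 6, 12 and 18 in SL. In LL it was at 175 ± 10.4, 186 ± 13.9, 207 ± 16.7 and 200 ± 8.53 CPM (interaction edgeR adjusted p = 1.99e-05). Its amplitudes were 0.20 and 0.13, with peaks at 3.64 h and 13.6 h. Tecr, the enoyl reductase gene, passed at 0.0278, with amplitudes of 0.07 and 0.20. Hsd17b12, the ketoacyl reductase gene (0.410), and the dehydratase genes Hacd1 (0.657), Hacd2 (0.385) and Hacd4 (0.237) did not pass. All of these amplitudes were below those of Elovl3 (1.97 and 1.77).

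The desaturases act in turn with the elongases. Of 8 listed, 7 were tested and 3 had a photoperiod change that depended on ZT, against 32.7% of all tested genes, and nothing is read from that count. Fads2, the delta-6 desaturase gene, was at 2490 ± 445, 3489 ± 793, 1891 ± 113 and 1582 ± 63.2 CPM at ZT0, 6, 12 and 18 in SL, and at 1462 ± 98.4, 1827 ± 410, 3041 ± 434 and 2518 ± 217 CPM in LL (edgeR adjusted p = 1.35e-08). Fads1, the delta-5 desaturase gene, ran between 942 ± 22.1 CPM in SL ZT18 and 1726 ± 460 CPM in SL ZT6 (interaction edgeR adjusted p = 5.82e-06). Both were higher in SL at ZT6 and lower in SL at ZT18, with log2 changes of 0.93 ± 0.14 and -0.67 ± 0.14 for Fads2 and 0.76 ± 0.14 and -0.55 ± 0.14 for Fads1. Elovl5 and Elovl2, which act after Fads2 and after Fads1, stood at changes of 0.03 and 0.12 at ZT6 and 0.17 and 0.14 at ZT18, with SEs of 0.16 and 0.15. Whether the desaturases differed from the elongases in this was not tested.

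**Figure D4:**
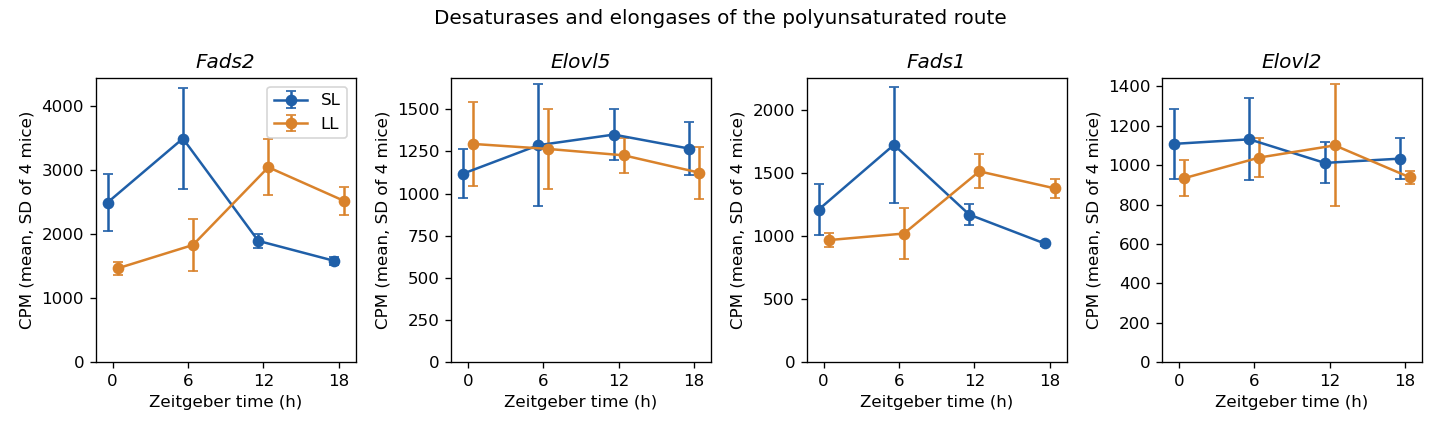
Levels (CPM, mean and SD of 4 mice, y axes from 0) of the desaturases and elongases of the polyunsaturated route, in the order in which they act, against zeitgeber time (h) in SL (blue) and LL (orange). The lines of Fads2 and Fads1 cross between ZT6 and ZT12, with Fads2 at 3489 CPM in SL ZT6 and 3041 CPM in LL ZT12, while Elovl5 and Elovl2 stay within 1.21-fold over the groups.

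Fads3, a desaturase gene of the same cluster that acts on sphingolipid bases, had the largest wave of the desaturases, with amplitudes of 1.01 and 1.25 (SE 0.13) and peaks at 0.489 h under SL and 9.51 h under LL (interaction edgeR adjusted p = 1.13e-08). Scd1, the stearoyl-CoA desaturase gene that acts on the product of ELOVL6, was at 12809 CPM on average and did not pass (0.145), and neither did Scd2 (0.141), Scd3 (0.646) or Degs1 (0.300).

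Upstream, 6 of 8 genes that supply malonyl-CoA and palmitate depended on ZT in their photoperiod change, against 32.7% of all tested genes. Acss2, the cytosolic acetyl-CoA synthetase gene, had amplitudes of 0.50 and 0.37 (edgeR adjusted p = 9.04e-07), Slc25a1, the mitochondrial citrate carrier gene, 0.18 and 0.25 (8.01e-06), and Acacb, an acetyl-CoA carboxylase gene, 0.71 and 0.49 (1.73e-05). Their peaks lay at 2.08 to 5.19 h in SL and 12.0 to 14.4 h in LL, away from those of Elovl3. Of 8 acyl-CoA synthetases and transporters, 7 were tested and 6 were called, against the same 32.7%. Acsl1 was at 2126 ± 160 and 1337 ± 79.7 CPM in SL ZT6 and ZT18. In LL it was at 1275 ± 220 and 2123 ± 77.9 CPM at these times (interaction edgeR adjusted p = 1.25e-06). Of 13 users of very long chains, 8 were called, again against 32.7%. Among them Abcd3, a peroxisomal transporter gene, was at 1050 ± 65.6 CPM in SL ZT6 and 667 ± 49.0 CPM in SL ZT18. In LL it was at 720 ± 52.9 and 876 ± 39.1 CPM at these times (interaction edgeR adjusted p = 3.95e-06). For the mean of the 4 ZTs, edgeR called no gene of these lists.

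Of 16 regulators of elongase genes, 11 were called for the interaction, against 32.7% of all tested genes. Nr1d1, which codes for the repressor REV-ERB alpha, peaked at 22.6 h under SL and 8.34 h under LL (edgeR adjusted p = 2.28e-14). Its amplitudes of 2.57 and 2.2 exceeded those of Elovl3. Arntl, which codes for the clock activator BMAL1, peaked at 13.2 and 23.3 h (7.34e-14), within 2 h of Elovl3. The part of either gene in the level of Elovl3 was not tested. Insig2, an SREBP-retaining protein gene chosen for mention after its values were seen, peaked at 13.9 and 0.239 h, with amplitudes of 0.97 and 1.01. Srebf1 peaked at 22.9 and 10.4 h, with amplitudes of 0.38 and 0.36. The peaks of Elovl6 were fitted at 5.92 and 13.7 h (SE 1.80 and 1.90 h). Time of day did not pass the threshold for Elovl6 in SL or in LL, so these peaks are uncertain. Across the 4 offset pairings 5 of the 16 regulators varied, Arntl, Dbp, Nr1d1 and Nr1d2 among them, against 0.519% of all tested genes. The list includes clock genes by choice, and the offset came from earlier results of these data. Nothing shared with Elovl3, which also varied, is read from the count.

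In RefSeq promoter windows on GRCm38.p6, from 250 bases before to 50 after a gene's start, 4 of the 5 genes were matched, with 6 windows. The gene without a match was Elovl3. The windows were searched on both strands for the E-box CACGTG bound by CLOCK and BMAL1, the nuclear receptor half-site AGGTCA, the sterol element TCACNCCAC and the D-box TTATGTAA. No window held more than 1 match, so no matches overlapped. The E-box was in the window of Elovl5, its first base 161 bases before the start (chr9:77917115-77917414), and 7.15% of the 32851 windows of all genes held it. The half-site was in that of Elovl6, 193 bases before the start, and in 1 of 2 windows of Elovl1, 95 bases before, and 16.26% of all windows held it. The sterol element and the D-box, in 1.24% and 0.94% of all windows, were in none of the 6. These are matches of letters and no more.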

How the data were processed

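The 5 genes, the gene lists, the comparisons and the 12 h offset were chosen with earlier results of these data known. RNA was converted with a stranded TruSeq mRNA kit, per the labels. Per the submitters' processing notes, bcl2fastq 2.20.0, STAR 2.7.2b and featureCounts 1.6.2 were used with GRCm38 (mm10). Not given in the sources used here: how strand and reads with several matches were treated, and the annotation. What the authors deposited is a table of raw read counts per gene. A second deposited table holds log2 values of 13432 genes. For the 5 genes it differed from log2 CPM by 0.0213 or less, and it served as an alternative.

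Counts were scaled with TMM, filtered by group with filterByExpr, which kept 14456 genes, and tested in edgeR 4.0.16 (R 4.3.3) by quasi-likelihood F-tests. The model had 1 mean per group (8 groups, 32 libraries), from which 14 comparisons were drawn. Adjustment was by Benjamini-Hochberg over the tested genes, and 0.05 was the threshold. Waves came from group means of log2 CPM with a prior count of 2, with errors from limma 3.58.1. Samples 6 h apart cannot tell a 24 h wave from a sharper or shorter one. Correlations within groups used 100000 permutations drawn within groups. Levels per kb used the union of GENCODE M21 exons.

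Named genes were the 5 elongases, genes overlapping them, Elovl4 and Elovl7, the genes of 6 pathway lists (per list the 2 to 4 with the smallest interaction p, and all elongation partners and desaturases), and for each elongase the 3 genes most alike over group means. For Elovl2 and Elovl5 the closest gene alone is printed. Some genes under this rule are counted but not reported here. Alternatives were DESeq2 1.42.0 size factors, total-count scaling, TMM computed without the 20 most abundant genes and the mitochondrial ones, no filter, the replicate number as a block, only the groups compared, DESeq2, limma on the authors' log2 values, and each library left out in turn.

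The fit was tested on simulated data (14277 genes). Of 100 genes given a log2 change of 1 in SL ZT6 it recovered 81, and it called 11 unchanged genes. Waves of log2 amplitude 0.5, 10 h apart, were recovered by the test of the rhythm difference in 89 of 100, with 15 unchanged genes called. Precision was set by total counts of 9095615 to 27462776, and the lowest count of any of the 5 genes in a library was 391 reads.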

Additional observations from a re-analysis of the deposited data

Results flagged for a closer look

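In 2 of the 40 sets of 4 mice (5 genes in 8 groups), 1 mouse lay apart from its group mates by Dixon's criterion, which chance meets in about 1 set in 20. Elovl3 stood at 734 CPM in SL ZT12 replicate 1, above 507 to 534 CPM in the other 3 mice. Elovl1 stood at 54.2 CPM in SL ZT12 replicate 4, above 51.2 to 51.7 CPM in the other 3.

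The SL minus LL change differed between ZTs, by edgeR's interaction test, for Elovl3 (adjusted p = 4.41e-15), Elovl1 (0.000512) and Elovl6 (0.0423). Elovl3 was lower in SL at ZT0 and ZT6 and higher in SL at ZT12 and ZT18 in all mice.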

How the results depend on the processing

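No call changed direction under any alternative. Elovl3 kept its calls at all 4 ZTs, for the interaction, for both times of day and for the rhythm under every alternative run. With no filter, the count of elongases called fell to 1 at ZT6 and at ZT12 and rose to 2 at ZT18, 2 for time of day in LL and 1 for SL ZT18 against LL ZT6. With only the groups compared it was 1 at ZT12 and 0 for SL ZT6 against LL ZT18. DESeq2 gave 2 for the interaction over offset pairings. Leaving out 1 library at a time gave 1 to 2 at ZT18, 2 to 3 for the interaction, 2 to 4 for the rhythm difference (4 without LL ZT12 replicate 3), 1 to 2 for the interaction over offset pairings, 0 to 1 for SL ZT6 against LL ZT18 and 0 to 1 for the correlated pairs, and left the other counts as they were. The cause of these changes was not tested.

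Counts over all genes that moved by more than 1.5 times were 723 against 1799 at ZT12 and 1655 against 2650 for time of day in LL with only the groups compared. The mean of the 4 ZTs gave 6 with DESeq2, 9 with no filter, 1 with total-count scaling and up to 3 without a library, against 0. The interaction over offset pairings gave 228 with DESeq2, 250 with no filter and 150 without LL ZT12 replicate 3, against 75. Of the offset pairings, SL ZT6 against LL ZT18 gave 98 with DESeq2, 155 with no filter, 32 with limma, 0 with only the groups compared and 0 to 124 without a library, against 64. SL ZT0 against LL ZT12 gave 65, 52, 9, 0 and 0 to 42 in the same order, and 8 with the replicate block, against 5. SL ZT12 against LL ZT0 gave 11 with DESeq2, 11 with no filter, 0 with only the groups compared and 0 to 2 without a library, against 1. SL ZT18 against LL ZT6 gave 30, 29, 1 and 4 to 18, against 8.

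Replicate numbers are shared by the groups, and what they stand for is not given in the sources used here. Over 112 pairs with the same number, deviations correlated with r between -0.26 and 0.24. In 17 pairs r was over 0.1, and 9 of 32 libraries correlated best with their own number. These values cannot decide whether the numbers pair mice. With the replicate number as a block, no elongase call changed (Elovl6 interaction adjusted p = 0.0444, Elovl3 at ZT12 1.77e-10).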
